A study of Rattus norvegicus with 129 samples.

Results

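The Cyp2b genes described here are Cyp2b1, Cyp2b2 and Cyp2b15, 3 of the 15062 genes named on the arrays of the series. The genes were chosen with earlier results of these data known. Their probe sets were taken by annotation: every probe set that the platform annotation assigns to one of them was kept, also where it names 2 of them. The oldest array type held 7 such probe sets. On it K01721mRNA_s_at and J00728cds_f_at are assigned to Cyp2b2 alone and D17349cds_f_at to Cyp2b15 alone. K00996mRNA_s_at, L00320cds_f_at and M11251cds_f_at are shared by Cyp2b1 and Cyp2b2, and M13234cds_f_at by Cyp2b15 and Cyp2b2. Each of the other 2 array types held 1 probe set, of the same name on both and shared by Cyp2b1 and Cyp2b2, called the Cyp2b1/2 probe set below. Cyp2b1 thus had no probe set of its own, and a value of a shared probe set belongs to no single gene. How far the probe sets assigned to Cyp2b2 or Cyp2b15 alone also take up signal from the other Cyp2b genes was not tested. Results given below for these genes are those of the probe sets. RefSeq lists Cyp2b15 as a gene and also as a synonym of Cyp2b12.

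CYP2B enzymes are haem-containing monooxygenases of the smooth endoplasmic reticulum of hepatocytes that oxidise drugs, steroids and pollutants, with electrons passed on by the reductase encoded by Por. In liver their genes are the textbook targets of the nuclear receptor CAR (Nr1i3). Phenobarbital keeps ligand from the EGF receptor, CAR moves into the nucleus, and it binds with RXR to an enhancer upstream of the gene. The related receptor PXR (Nr1i2), which binds PCN in rats, recognises similar half-sites and can act on the same enhancer.

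The series collected 129 arrays of rat liver RNA, 1 rat each, in 31 groups of 5 studies, under the question of how receptors for foreign compounds take part in the response to perfluoroalkyl acids. In the first study, Sprague-Dawley rats of both sexes received phenobarbital (PB), PCN or vehicle by gavage, the 2 compounds at 100 mg/kg and the vehicle being methylcellulose with Tween 80. They were killed at 6 h or 24 h of a single dose, or, where dosing went on for 5 days, 24 h past the final dose, called 5 d below (5 rats per group, ages not in the labels). In the D3T study, female Sprague Dawley rats 4 weeks old ate a diet with D3T (3H-1,2-dithiole-3-thione, an activator of NRF2) at 600 mg/kg diet or the control diet (4 each). In the 3-week study, female Sprague-Dawley rats 60 days old received PFOS at 5 mg/kg or Tween-20 vehicle daily for 21 days (2 each). In the PFOA and PFOS study, male Sprague-Dawley rats 10 weeks old received PFOA at 20 mg/kg/day, PFOS at 10 mg/kg/day or Alkamuls vehicle by gavage (3 each). In the last study, male Wistar Hanover rats received Wy-14643, an agonist of PPARα, at 60 mg/kg/day for 1, 3 or 7 days, or carboxymethyl cellulose (3 each). The labels give no duration for D3T or for the PFOA and PFOS study, and no dose for 1 of the 3-day Wy-14643 rats.

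Cyp2b1 and Cyp2b2 are near-copies, and the sequences before their starts are shown to compare them there. The transcripts that the probe sets read were not compared. The 250 bases before each RefSeq start (GRCr8, plus strand) are printed with the 8 bases that differ between Cyp2b1 and Cyp2b2 in capitals. In Cyp2b15 the capitals mark a nuclear receptor half-site.
Cyp2b1, chr1:90645869-90646118: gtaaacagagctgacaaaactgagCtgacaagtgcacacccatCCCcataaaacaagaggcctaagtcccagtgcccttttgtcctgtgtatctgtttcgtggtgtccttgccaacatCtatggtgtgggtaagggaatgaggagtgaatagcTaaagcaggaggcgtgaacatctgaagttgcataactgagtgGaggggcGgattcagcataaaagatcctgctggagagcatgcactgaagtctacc
Cyp2b2, chr1:90722031-90722280: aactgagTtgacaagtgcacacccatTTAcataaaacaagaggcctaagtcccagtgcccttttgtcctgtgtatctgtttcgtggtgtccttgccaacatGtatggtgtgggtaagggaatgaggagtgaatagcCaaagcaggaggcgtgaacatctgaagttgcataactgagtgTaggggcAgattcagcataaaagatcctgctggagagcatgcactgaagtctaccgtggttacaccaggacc
Cyp2b15, chr1:91221615-91221864: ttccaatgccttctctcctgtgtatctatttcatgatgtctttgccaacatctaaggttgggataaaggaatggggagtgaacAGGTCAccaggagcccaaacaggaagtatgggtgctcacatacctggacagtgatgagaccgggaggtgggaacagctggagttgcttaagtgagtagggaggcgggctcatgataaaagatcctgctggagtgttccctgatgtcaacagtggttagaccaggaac

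Where the windows of Cyp2b1 and Cyp2b2 overlap, 225 of 233 aligned bases were identical (96.6%), with 8 substitutions and no gap. Cyp2b15 was identical to Cyp2b1 at 74.9% and to Cyp2b2 at 72.7% of the aligned bases outside gaps. The 3 genes lie on the same strand of chromosome 1 in a row of 12 RefSeq genes, of which 8 have a Cyp2b symbol, and 1 gene stands between Cyp2b1 and Cyp2b2. The half-site AGGTCA on either strand was found before Cyp2b15 alone, and in 14.1% of all 33469 promoter windows. AGTTCA was found before none of the 3 and in 12.2% of all. A direct repeat of 2 such half-sites with 4 bases between them, the arrangement that CAR and PXR bind with RXR, was in none of the 3 and in 0.0149% of all. The phenobarbital enhancer known from rat Cyp2b2 lies farther upstream than these windows, so the absence of a match here has no bearing on it.

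All values below are intensities per probe set, quantile normalised within each study except for the 3-week study, and differences are of log2(value + 16) ± SE from limma, the tested group over its reference. On this scale the change of a dim probe set is understated. A probe set counts as passing where the adjusted p (Benjamini-Hochberg over all probe sets tested) was under 0.05. The mean deposited intensity per array ranged from 93.26 to 613.7 over the studies, and the number of arrays limits the precision. Array 1003, of a male 6 h vehicle rat, had a Spearman correlation of 0.596 with its group, against at least 0.935 for the others of that study, and was left out, so that group has 4 rats. Hepatocyte markers were bright on all arrays, with means of 11.26 to 14.26 on the log2 scale for the 8 genes measured. In bulk liver, fewer cells of a type and less RNA per cell cannot be told apart.

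PB raised every Cyp2b probe set at every time in both sexes, and did so by 6 h. K01721, assigned to Cyp2b2 alone, showed it clearly in males. After 1 dose and 6 h the PB males had intensities of 5917.2, 5917.2, 6015.2, 6075 and 6635.7, against 212.8, 254.1, 458.2 and 1113.9 in vehicle males. After 24 h they had 5720.8, 6527.9, 6695.5, 6938 and 7406.9, against 357.9, 433.9, 454.1, 481.7 and 706.5 in vehicle males. After 5 doses they had 5555.9, 6695.5, 6695.5, 6761.3 and 7591.5, against 247.2, 568.7, 764.9, 1006.8 and 1179.9 in vehicle males. Every PB male was far above every vehicle male, and the relative spread was wider among vehicle rats than among PB rats. The differences were 3.84 ± 0.31 at 6 h (14.4-fold), 3.76 ± 0.29 at 24 h (13.6-fold) and 3.29 ± 0.29 at 5 d (9.75-fold), with limma adjusted p of 3e-16, 4e-17 and 2.3e-14.

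In females the same probe set gave 4239.2, 5260.5, 5391.8, 5720.8 and 7310.4 at 6 h after PB, against 305.5, 425.3, 457, 704.1 and 1003.6 after vehicle. At 24 h PB females had 5640.1, 6360.6, 6418.7, 6761.3 and 7406.9, against 145, 201.9, 315.8, 324 and 334.5 in vehicle females. At 5 d they had 5817.2, 6294.7, 6360.6, 6360.6 and 6527.9, against 293.7, 401.9, 443.1, 578.5 and 597.2 in vehicle females. Again no PB value overlapped a vehicle value. The differences were 3.33 ± 0.29 (10.1-fold), 4.6 ± 0.29 (24.3-fold) and 3.76 ± 0.29 (13.5-fold) at the 3 times, with limma adjusted p of 1.6e-14, 1.1e-21 and 4.2e-17.

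**Figure D1:**
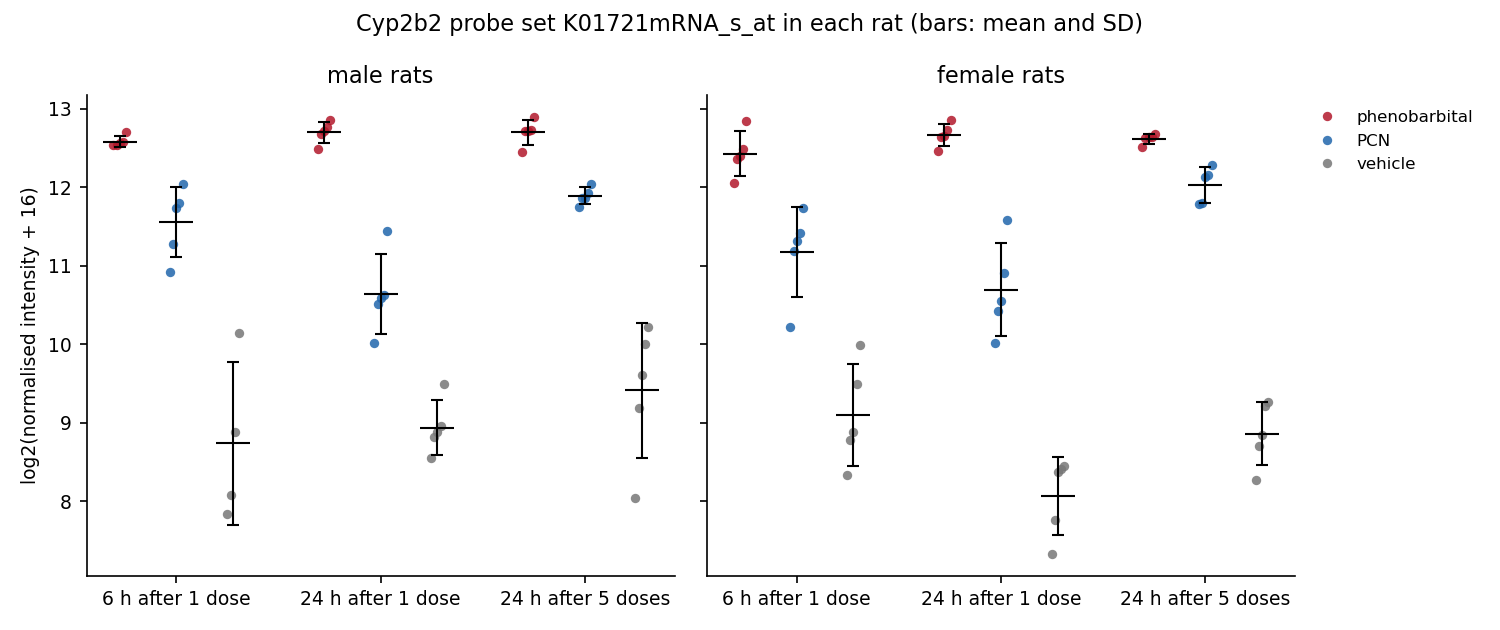
Level of probe set K01721 (Cyp2b2) on the log2(intensity + 16) scale in each rat given PB, PCN or vehicle, males on the left and females on the right, at 6 h, 24 h and 5 d. Points are rats, bars are the group mean and SD. At each time PB rats lie highest, PCN rats between and vehicle rats lowest, with no overlap.

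All 7 probe sets passed upward in each of the 6 PB comparisons, with no overlap between PB and vehicle rats in any of them. Of all 8740 probe sets tested, 0.618%, 1.37% and 2.56% passed upward in males at 6 h, 24 h and 5 d, and 1.3%, 2.31% and 1.45% in females. PB lay above vehicle without overlap on 1.85%, 1.89% and 2.31% of all in males and 1.04%, 2.54% and 1.58% in females. The 7 differences ran from 2.05 to 4.28, 2.51 to 4.53 and 2.74 to 4.01 in males at the 3 times, and from 1.87 to 3.61, 2.64 to 5.02 and 2.58 to 4.66 in females. In all 6 the smallest was that of M13234, shared by Cyp2b15 and Cyp2b2. The top of the range was a probe set shared by Cyp2b1 and Cyp2b2 each time, for example L00320 in females at 24 h. There L00320 read 4048.4, 4354.5, 4354.5, 4530.5 and 5224.2 in PB females, against 86.6, 96.9, 121.8, 138.9 and 193.9 in vehicle females. That was a difference of 5.02 ± 0.25 (32.4-fold, limma adjusted p 1.9e-27). M11251, shared by the same 2 genes, differed by 4.99 ± 0.27 in the same comparison.

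Cyp2b15, read from D17349, rose with the others. In males at 24 h it had 2123.6, 2227.1, 2672.5, 2739.7 and 3163.8 after PB, against 189.9, 212.4, 219.7, 222.2 and 241 after vehicle. In females at 24 h the PB rats read 1878.2, 2263.1, 2306.8, 2440.3 and 2542.3, against 183.5, 185.8, 213.3, 230.6 and 346.4 in vehicle rats. The lowest PB rat stood above the highest vehicle rat in both sexes. The differences for D17349 were 3.08 ± 0.21, 3.47 ± 0.19 and 3.16 ± 0.19 in males and 2.63 ± 0.19, 3.24 ± 0.19 and 3.32 ± 0.19 in females, in the order 6 h, 24 h and 5 d. Whether the _f_at probe sets of Cyp2b15 also take up signal from the near-identical family members was not tested.

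PCN, compared with the same vehicle rats, also raised K01721, assigned to Cyp2b2, and by less than PB at 24 h. K01721 in PCN males at 6 h read 1923.3, 2470.9, 3383.9, 3534.1 and 4205.4, against the 212.8 to 1113.9 of the vehicle males given above. PCN males had 1023.8, 1439.6, 1529.4, 1571.1 and 2772 at 24 h, and 3429.9, 3692.5, 3714.7, 3885.6 and 4205.4 at 5 d. None of these overlapped the vehicle males of the same time. The differences from vehicle were 2.82 ± 0.31 (7.05-fold), 1.7 ± 0.29 (3.25-fold) and 2.48 ± 0.29 (5.57-fold), with limma adjusted p of 7.6e-10, 0.00012 and 1.5e-09. When only the groups compared were fitted, so that fewer arrays stood behind the spread, the same differences had adjusted p of 0.098 at 6 h and 0.11 at 24 h.

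PCN females had K01721 values of 1179.9, 2315.9, 2535.1, 2715.2 and 3383.9 at 6 h. At 24 h they had 1020.3, 1354.2, 1485.5, 1903 and 3052.4, and at 5 d 3515.9, 3534.1, 4472.9, 4530.5 and 4960.6. All lay above the vehicle females of the same time. The differences were 2.08 ± 0.29 (4.22-fold), 2.63 ± 0.29 (6.18-fold) and 3.17 ± 0.29 (8.99-fold), with limma adjusted p of 6.4e-07, 2.5e-10 and 4.8e-14.

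Of the 7 probe sets, 7, 5 and 7 passed upward after PCN in males at 6 h, 24 h and 5 d, where 1.3%, 0.469% and 2.93% of all probe sets did. In females 7 passed at each time, where 1.51%, 2.29% and 4.45% of all did. With only the groups compared, 0, 0 and 7 passed in males and 1, 5 and 7 in females, while the 7 of PB passed in all 6. In males at 24 h between 3 and 6 passed with 1 array left out, and 2 on the values as deposited. With array 1003 kept, 2 passed in males at 24 h, 4 in females at 24 h and 5 in females at 6 h. PCN and vehicle males did not overlap on any of the 7 probe sets at any time, where 2.16%, 1.03% and 2.55% of all were higher without overlap. In females 5, 5 and 7 did not overlap at 6 h, 24 h and 5 d, where 1.82%, 2.8% and 3.42% of all did so.

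At 24 h the Cyp2b15 probe set had the smallest of the 7 differences with PCN in both sexes, while at 6 h it was 1.63 in males and 1.01 in females and M13234 had the smallest. In males at 24 h D17349 read 247.4, 297.2, 386.4, 434.4 and 488.6 after PCN, against 189.9 to 241 in vehicle males. Its difference of 0.69 ± 0.19 had a limma adjusted p of 0.073. In females at 24 h it read 204.7, 354.5, 376.1, 392 and 613.3 after PCN, against 183.5 to 346.4 in vehicle females, and the groups overlapped. That difference was 0.66 ± 0.19 with an adjusted p of 0.033, and it lost its call without any 1 of 7 arrays, for example to 0.48 with an adjusted p of 0.19 without PCN rat 5507. After 5 doses the rise of D17349 was 1.6 ± 0.19 in males and 1.93 ± 0.19 in females, with 753.4, 830, 894.5, 899.8 and 1005.3 in PCN males, against 214.9, 242.5, 250.1, 296.6 and 419.7 in vehicle males.

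At equal dose and time, most Cyp2b probe sets read higher after PB than after PCN. The PB and PCN groups were compared directly in 6 tests, each over all probe sets. In males 6, 7 and 6 of the 7 passed as higher after PB at 6 h, 24 h and 5 d, where 0.206%, 0.641% and 1.45% of all probe sets did. In females 7, 7 and 6 passed, where 2.93%, 2.33% and 3.31% of all did. K01721 was the one that missed: PB minus PCN was 1.03 at 6 h and 0.81 at 5 d in males (limma adjusted p 0.14 and 0.13) and 0.59 at 5 d in females (0.29). With only the groups compared, K01721 at 5 d passed (0.0063 in males and 0.021 in females), and its 1.25 in females at 6 h, which had an adjusted p of 0.0023, did not (0.056). With that setting 3, 7 and 7 of the 7 passed at the 3 times in either sex, and with array 1003 kept 3, 7 and 3 in males and 5, 7 and 3 in females.

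The difference between the compounds was widest at 24 h. There K01721 differed by 2.06 ± 0.29 in males and 1.97 in females, and D17349 by 2.77 ± 0.19 and 2.58 ± 0.19. For L00320 the PB males read 4681.4, 4960.6, 5592, 5640.1 and 6075 at 24 h, against 329.1, 378.2, 387.3, 418.5 and 737.1 in PCN males. The difference was 3.59 ± 0.25 in males (12-fold) and 3.29 ± 0.25 in females (9.77-fold), with limma adjusted p of 4.7e-19 and 2.3e-17. At 5 d L00320 differed by 2.04 ± 0.25 in males and 1.85 ± 0.25 in females.

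The gap between a pair of the probe sets can be read within each array. There, the log2 value of L00320 (Cyp2b1 or Cyp2b2) less that of K01721 (Cyp2b2) averaged -0.6, -0.31 and -0.37 in PB males, against -1.87, -1.83 and -1.6 in PCN males and -1.01, -1.08 and -1.09 in vehicle males, at 6 h, 24 h and 5 d. In PB females it averaged -1.09, -0.53 and -0.39, against -2, -1.85 and -1.65 in PCN females and -1.25, -0.95 and -1.29 in vehicle females. PB rats lay above PCN rats without overlap in all 6 sets, by 0.91 to 1.53. In the D3T study the same measure averaged -1.7 in D3T rats (-1.85 to -1.6), lower than the -0.97 of control rats (-1.61 to -0.42). This measure was chosen after the values had been seen, so it is a description with no test. Which gene or part of the intensity scale lies behind it was not tested.

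**Figure D2:**
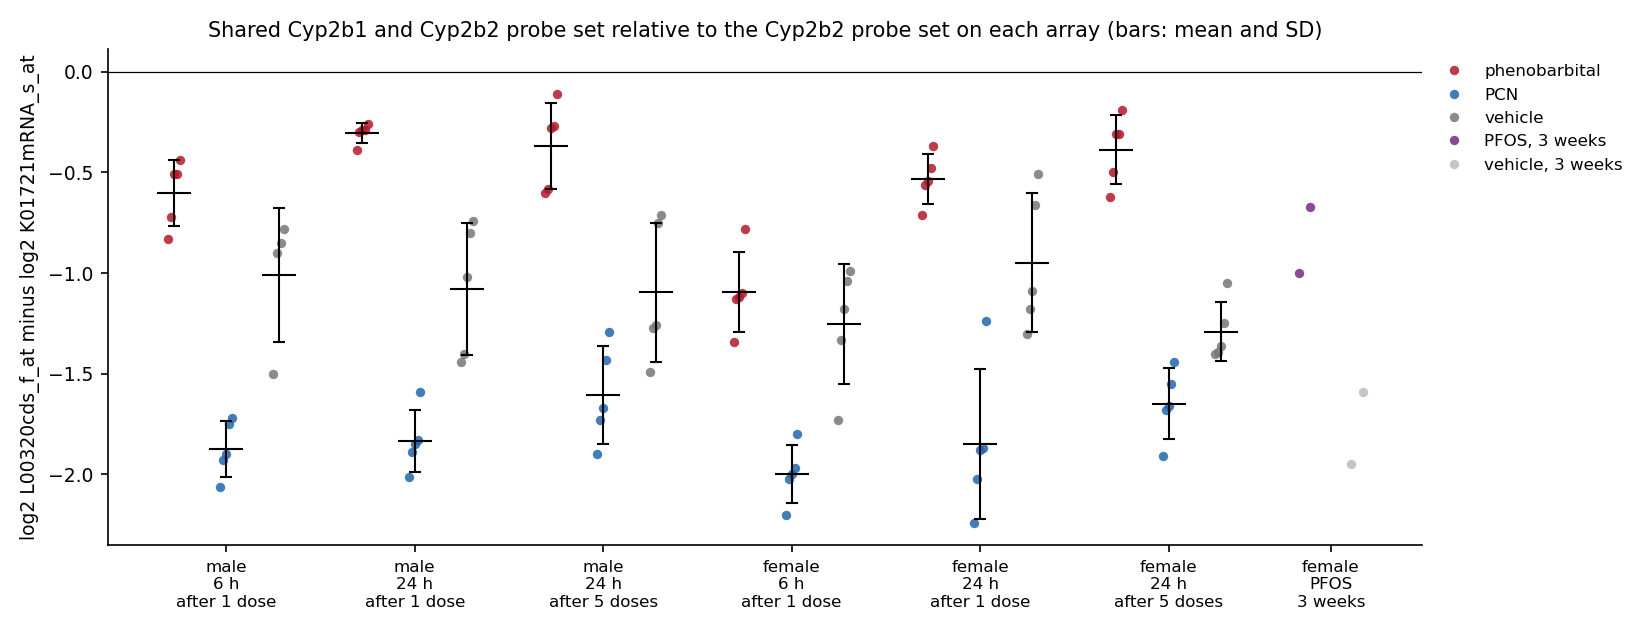
Log2 value of L00320 minus that of K01721 on each array, for PB, PCN and vehicle by sex and time, and for PFOS and vehicle in the 3-week study. Points are rats and bars group means. PB rats lie above PCN rats in all 6 sets of groups, and both PFOS rats, averaging -0.83, lie above both vehicle rats, averaging -1.77. The D3T study, where treated rats averaged lower than control rats, is not drawn.

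No difference between the sexes in the Cyp2b response passed the test. For K01721 the PB effect in females minus that in males was -0.51, 0.84 and 0.47 at 6 h, 24 h and 5 d, and the PCN effect -0.74, 0.93 and 0.69, with SE of 0.42 to 0.43. None of the 7 probe sets passed in these 6 limma interaction tests, where 1.02%, 0.0114%, 0.103%, 0.0458%, 0.0229% and 0.606% of all did. The 95% interval at 24 h after PB ran from 0.01 to 1.67, just above 0, and is not adjusted for the number of probe sets tested. A larger effect in females of up to that size thus remains possible. Vehicle females had less M11251 than vehicle males at the 5-day time, with a difference of -0.89 ± 0.27 (adjusted p 0.032), where 2.57% of all probe sets passed as lower. The call was lost with only the groups compared (0.25), with array 1003 kept (0.25), on the values as deposited (0.42) and without any 1 of 7 of the 10 arrays (to at most 0.13). It was the 1 of 7 that passed in the 3 vehicle comparisons, and 6.49% and 5.03% of all passed at 6 h and 24 h.

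In females 5 differences between times passed, and all 5 lost the call under some settings. The PB effect at 24 h less that at 6 h was 1.1 ± 0.27 for J00728 (limma adjusted p 0.0081), 1.52 ± 0.35 for L00320 (0.0037) and 1.47 ± 0.38 for M11251 (0.013), where 1.83% of all probe sets passed upward. For K01721 it was 1.27 ± 0.42 with an adjusted p of 0.082. The PCN effect at 5 d less that at 24 h was 1.27 ± 0.27 for D17349 (0.0091) and 1.17 ± 0.27 for J00728 (0.014), where 0.309% of all passed upward. With array 1003 kept the adjusted p of the 5 ran from 0.052 to 0.71, and on the values as deposited from 0.2 to 0.38, so none passed in either. With only the groups compared both PCN differences were lost (0.15 and 0.083), and with median scaling that of J00728 (0.056). The Cyp2b2 probe set J00728 read 1938.2, 2499, 2580.1, 2609.5 and 2624.7 in PCN females at 5 d, and 732.5, 853.6, 884.8, 1075 and 1556.2 at 24 h. In males none of the 7 passed in a time comparison, where 0.16% and 0.217% of all did with PB and 0.309% and 0.206% with PCN, for 24 h less 6 h and 5 d less 24 h. In females none passed for PB at 5 d less 24 h, where 1.62% of all did, or for PCN at 24 h less 6 h, where 0.263% did.

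Ordered by K01721, the 18 groups of this study ran from the PB groups (means of 12.43 to 12.7 on the log2 scale) over the PCN groups (10.64 to 12.03) to the vehicle groups (8.07 to 9.41). Only 2 of the 17 steps between neighbours were wider than the larger of their SDs. One was the 0.4 between PB females at 6 h and PCN females at 5 d, and the other the 1.23 between PCN males at 24 h and vehicle males at 5 d. Over the 18 group means the other 6 probe sets had Pearson correlations of 0.946 (D17349) to 0.994 (K00996) with K01721. Over arrays, the correlation between pairs of the 7 had a median of 0.976 on all 89 arrays. Among the 29 vehicle arrays alone it was 0.791, with the lowest pair at 0.199. These points share arrays and groups, and the correlations are a description.

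Likeness to K01721 over the 18 group means was ranked among probe sets with a single gene symbol outside Cyp2b. The highest were Ugt2b1, a glucuronosyltransferase (r 0.861), and Pnoc, which encodes the nociceptin precursor (0.857). Next came Cyp3a23-3a1, the usual rat PXR target, with 0.81, 0.808 and 0.806 for its 3 probe sets. Vps45 (0.782), Mcm6 (0.774) and Grm5 (0.772) completed the 8 highest. The group means of Vps45 spanned only 0.46 on the log2 scale, against 4.63 for K01721.

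**Figure D3:**
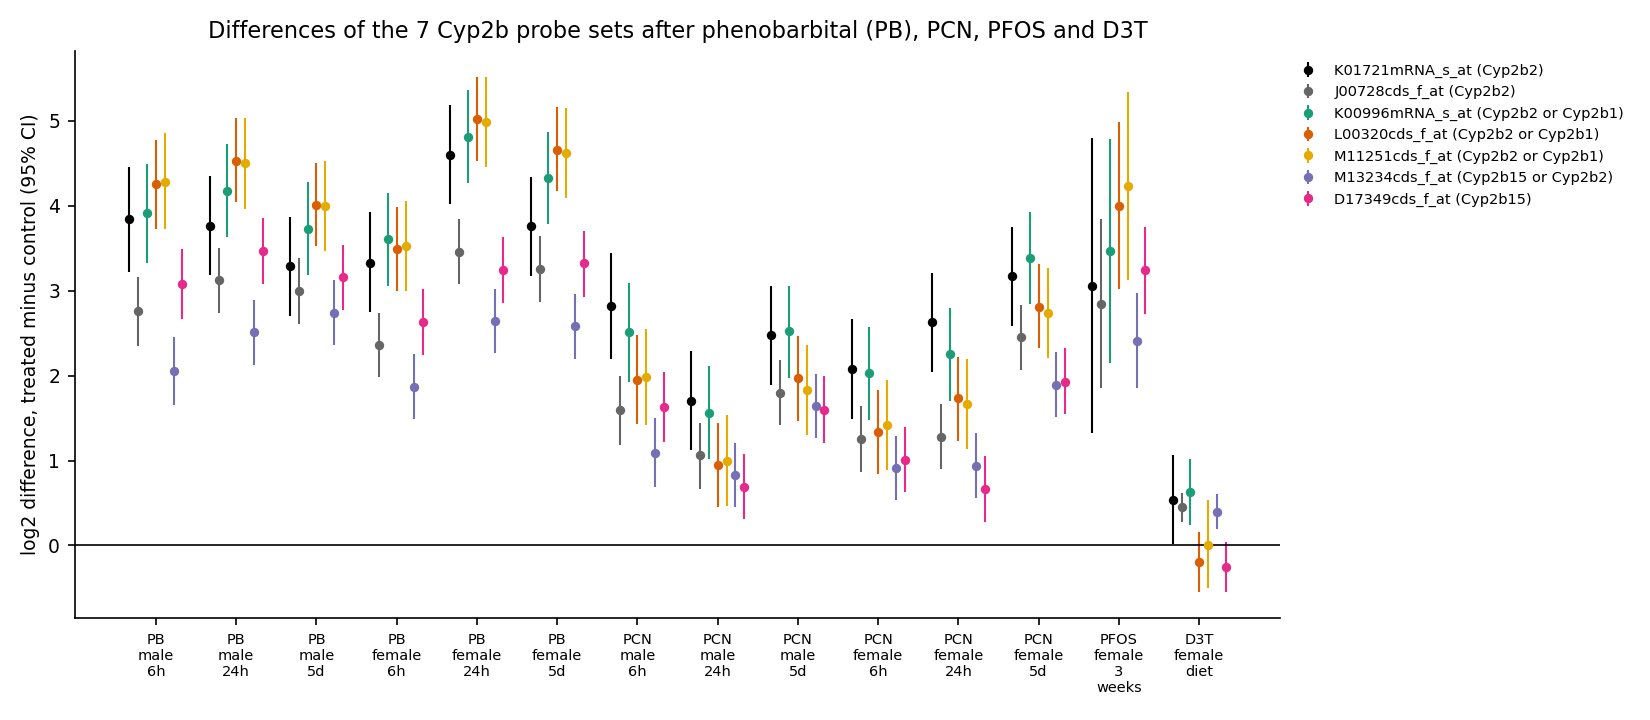
Log2 difference of each of the 7 Cyp2b probe sets from its control group in 14 comparisons: PB and PCN by sex and time, the D3T diet and PFOS for 3 weeks. Bars are 95% intervals of the limma fit. The PB differences lie between 1.87 and 5.02, the PCN differences between 0.66 and 3.38, those of D3T around 0 and those of PFOS between 2.41 and 4.23.

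All 7 probe sets were higher in both PFOS females of the 3-week study than in either vehicle female, but none passed the test with 2 rats in each group. K01721 read 3868.6 and 5726.6 in PFOS rats, against 760.8 and 395.5 in vehicle rats. L00320 read 2418.9 and 2863.9 in PFOS rats, against 185.2 and 121 in vehicle rats. For D17349 (Cyp2b15) the PFOS rats had 1434.9 and 1536.1, against 160.1 and 127.3 in vehicle rats. Every PFOS value was above every vehicle value on all 7 probe sets, as it was on 9.5% of all probe sets tested. The differences were 3.06 ± 0.48 for K01721 (8.35-fold), 4 ± 0.27 for L00320 (15.9-fold), 4.23 ± 0.31 for M11251 (18.7-fold) and 3.24 ± 0.14 for D17349. J00728, K00996 and M13234 differed by 2.84 ± 0.28, 3.47 ± 0.37 and 2.41 ± 0.16.

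The limma adjusted p of these 7 ran from 0.27 to 0.75, and 0% of all probe sets passed, with 421 of 8740 at an unadjusted p under 0.05. With the dimmest 33.3% of probe sets left out, all 7 passed, with adjusted p of 0.0025 to 0.039, among 25 probe sets in all. In the fit with all probe sets, where none passed, Cyp3a23-3a1, the PXR target, differed by 1.51 ± 0.2. The within-array difference of L00320 less K01721 was -1 and -0.67 in PFOS rats, against -1.95 and -1.59 in vehicle rats.

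In the male study, PFOA and PFOS each raised the Cyp2b1/2 probe set. PFOA at 20 mg/kg/day gave 9180.8, 9625.4 and 9893.1, against 1003.2, 1401.7 and 1498 in vehicle rats. PFOS at 10 mg/kg/day gave 6744.6, 7981.1 and 8022.3, against the same 3 vehicle rats. Neither treated group overlapped the vehicle rats, as on 12.1% of all probe sets with PFOA and 8.68% with PFOS. The differences were 2.88 ± 0.15 for PFOA (7.38-fold, limma adjusted p 0.00071) and 2.54 ± 0.15 for PFOS (5.84-fold, adjusted p 0.0059). Upward calls made up 3.23% of the 31042 probe sets after PFOA and 0.283% after PFOS. The 2 compounds, a carboxylate and a sulfonate of the same chain length, were given at different doses and share the vehicle rats, so their values stand side by side without a comparison.

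With Wy-14643 the probe set of the same name, on another array type, passed at 3 and 7 days and not at 1 day. After 1 day the treated rats had 2748.4, 4476.9 and 4630.7, against 2561.5, 2696.5 and 3307.2 in vehicle rats, and the groups overlapped. After 3 days they had 4071.4, 4331.3 and 5024.9, against 1746.2, 2376.6 and 2696.5 in vehicle rats, and after 7 days 4695.5, 5567.5 and 5644.2, against 1602, 2088.2 and 2110.7. At 3 and 7 days every treated rat was above every vehicle rat, as on 13.4% and 13.1% of all probe sets (14% at 1 day). The differences were 0.44 ± 0.21 (1.35-fold, limma adjusted p 0.22), 0.99 ± 0.21 (1.99-fold, 0.0094) and 1.45 ± 0.21 (2.74-fold, 0.00061), where 5.94%, 5.56% and 6.57% of 15866 probe sets passed upward. Without Wy-14643 rat 05 the 1-day difference was 0.68 with an adjusted p of 0.043. With only the groups compared the 3-day difference had an adjusted p of 0.067.

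The increase over time was not itself past the threshold: the effect at 7 days less that at 1 day was 1.02 ± 0.3 (adjusted p 0.11), where 1.87% of all passed, and at 3 days less that at 1 day 0.55 ± 0.3 (0.52), where 0.586% did. The vehicle means were 11.48, 11.14 and 10.92 on the log2 scale at 1, 3 and 7 days, and the Wy-14643 means 11.92, 12.13 and 12.37. The vehicle mean was thus lower at each later time, while the treated mean was higher.

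**Figure D4:**
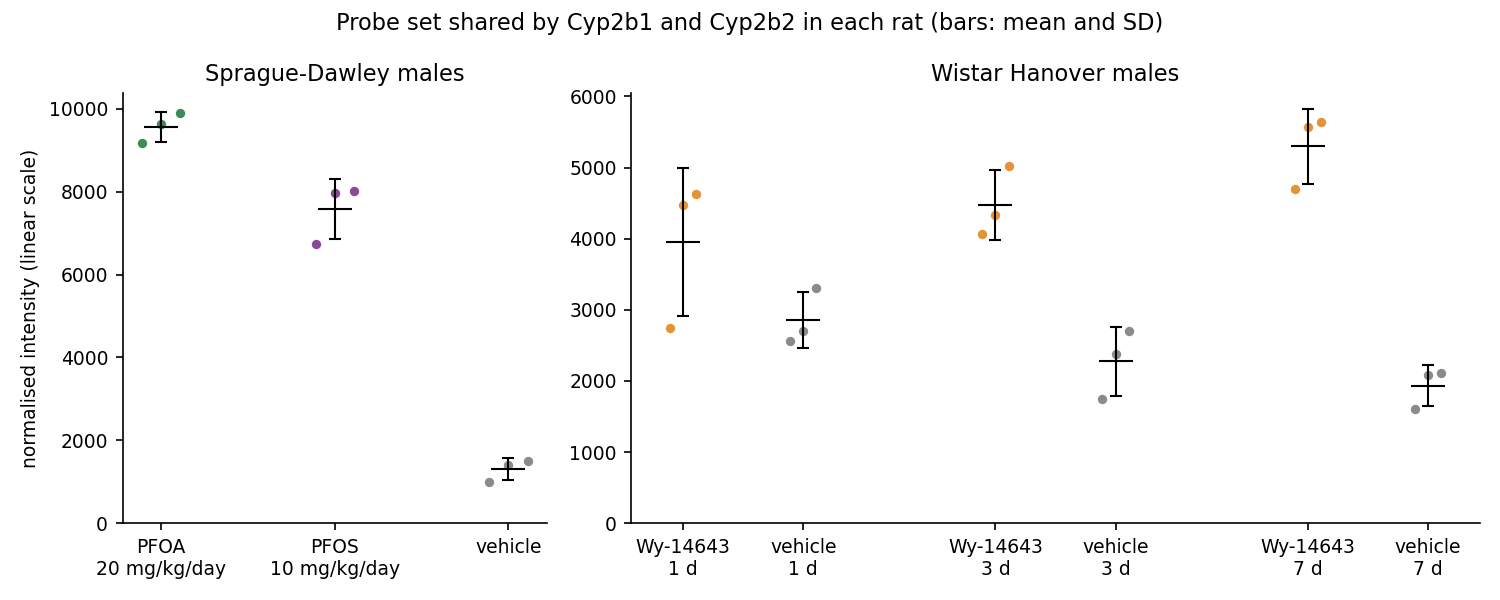
Normalised intensity of the Cyp2b1/2 probe set in each male rat given PFOA, PFOS or vehicle (left) and Wy-14643 or vehicle for 1, 3 or 7 days (right). The 2 panels come from different array types with axes of their own and are not to be compared in level. PFOA and PFOS rats lie between 6744.6 and 9893.1, above vehicle rats at 1003.2 to 1498, and the Wy-14643 rats separate from their vehicle rats at 3 and 7 days.

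D3T, an inducer of NRF2 target genes, gave small differences whose direction depended on the scaling of the arrays. J00728 (Cyp2b2) read 613.2, 641.2, 666.3 and 718 in D3T rats, against 439.5, 465.9, 478.9 and 534.7 in control rats, after normalisation. M13234 (Cyp2b15 or Cyp2b2) read 824.9, 858.7, 965.6 and 1025.5 in D3T rats, against 626.9, 682, 732.4 and 736.5 in control rats. The groups did not overlap on either, nor on K00996 (496.4 to 577.7 in D3T rats, against 273.9 to 451.7 in control rats). D3T rats were higher without overlap on 8.7% of all probe sets. The differences of J00728 and M13234 were 0.45 ± 0.07 (1.36-fold, limma adjusted p 0.012) and 0.39 ± 0.09 (1.31-fold, 0.031). These 2 of 7 passed upward, where 5.22% of all probe sets did.

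The other 5 did not pass: K00996 differed by 0.63 ± 0.16 (0.054), K01721 by 0.54, M11251 by 0.01, L00320 by -0.19 and D17349 by -0.25. On the values as deposited J00728 read 203.1, 259.9, 268.4 and 294.1 in D3T rats, against 628.6, 656.4, 677.9 and 1174.8 in control rats, a difference of -1.52. All 7 passed as lower on that scale, on which the array medians of this study ranged over 1.73. Every D3T array had a lower median (4.694 to 4.937, log2) than every control array (5.737 to 6.422). Far more of all probe sets passed on that scale than after normalisation, as counted at the end, so the lower calls are not particular to Cyp2b. With 1 array left out, between 1 and 3 of the 7 passed upward.

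**Figure D5:**
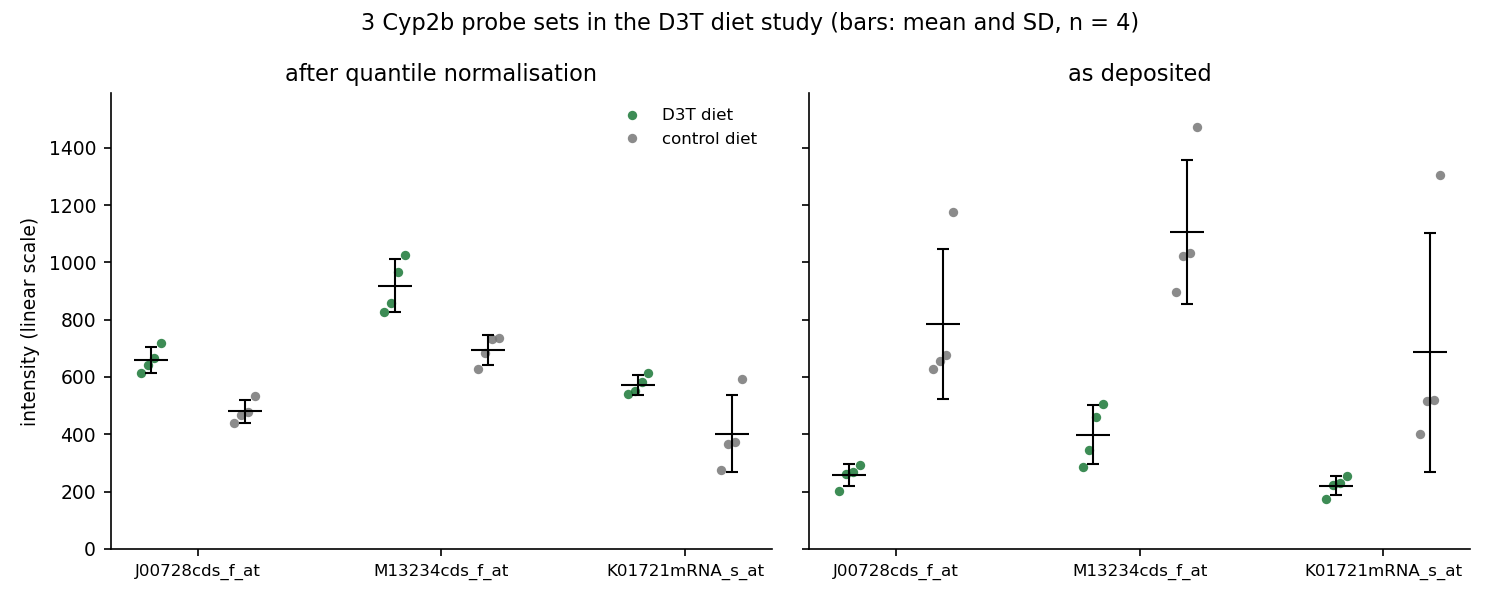
Intensities of J00728, M13234 and K01721 in each D3T and control rat, on a linear scale, with the arrays quantile normalised (left) and as deposited (right). D3T rats lie above control rats on the left for J00728 and M13234 and below them on the right.

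Other genes placed under CAR and PXR in a list of 26 were read from the same fits. With PB, 4, 11 and 14 of the 19 measured rose in males at 6 h, 24 h and 5 d, with medians over the 19 of 0.32, 0.88 and 1.09, and 1, 12 and 10 in females, with medians of 0.35, 0.97 and 1.23. In males at 5 d 1 fell, where 2.35% of all probe sets did. With PCN 5, 5 and 13 rose in males and 7, 12 and 14 in females, with medians of 0.19, 0.53 and 1.03 and of 0.63, 1.11 and 1.7. The median over all probe sets was 0 in each comparison. Upward calls made up 0.618% to 2.56% of all with PB and 0.469% to 4.45% with PCN. Cyp2b and this list were therefore both upward, while Cyp2b had all 7 probe sets past the threshold at 6 h, when most of the list was not.

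Among these, Cyp3a23-3a1 rose by 1.26 ± 0.17 in PB males and by 1.77 ± 0.17 in PB females at 24 h, and by 1.48 ± 0.17 and 2.18 ± 0.17 in PCN males and females. Cyp3a18, another CYP3A gene, rose by 3.67 ± 0.29 in PCN females at 5 d. Aldh1a1, a retinal dehydrogenase, rose by 2.46 ± 0.25 and Abcc3, an exporter of conjugates, by 2.54 ± 0.26 in PB males at 5 d. The glutathione transferase gene Gsta3 rose by 3.76 ± 0.35 in PB males and by 3.15 ± 0.35 in PCN males at 5 d.

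Genes that supply CYP2B enzymes with electrons and haem were read as a list of their own, which shares Por and Alas1 with the list above. Of 8 measured, 2, 3 and 3 rose in PB males, 0, 3 and 1 in PB females, 2, 1 and 3 in PCN males and 1, 3 and 3 in PCN females. Upward calls made up 0.618% to 2.56% of all probe sets with PB and 0.469% to 4.45% with PCN. In PCN females at 5 d 2 of the 8 fell, where 3.98% of all did. Por, the reductase, rose by 1.79 ± 0.26 in PB males at 24 h and by 2.16 ± 0.26 in PCN females at 5 d. Alas1, the first enzyme of haem synthesis, rose by 1.78 ± 0.25 in PB males and by 1.78 ± 0.25 in PB females at 24 h. Median differences over the 8 stayed between 0 and 0.33 in the 12 comparisons with vehicle.

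Of 7 other Cyp2 genes measured, at most 1 rose and at most 1 fell in each comparison of PB or PCN with vehicle. Over all probe sets 0.469% to 4.45% rose and 0.103% to 3.98% fell. Cyp2b3, described as constitutive in rat liver and the next Cyp2b gene after Cyp2b2 on the chromosome, differed by -0.09 to -0.3 with PB and passed in none of the 6 comparisons. With PCN for 5 days it fell by 0.45 in females (limma adjusted p 0.0006) and by 0.32 in males (0.044). The call in males was lost with 7 of the 10 arrays left out in turn, to an adjusted p of at most 0.13. Both calls were lost with median scaling, to -0.4 (0.054) in females and -0.22 (0.45) in males. Of the 7, Cyp2b3 among them, 1 rose in each sex at 24 h after PB, where 1.37% of all rose in males and 2.31% in females. In males it was Cyp2b12 (by 0.49 ± 0.1, from the floor of 4.00). In females it was Cyp2a2 (by 0.56), which lost its call without any 1 of 6 arrays. With only the groups compared neither passed (0.28 and 0.15). With PB none passed at 6 h or 5 d. With PCN Cyp2a2 rose in females by 0.91 at 24 h and by 0.61 at 5 d. Both Cyp2a2 calls were lost on the values as deposited (limma adjusted p 0.12 and 0.38). Cyp2f4 fell with PCN at 6 h by 0.56 in females and by 0.65 in males, where it differed by 0.14 with array 1003 kept. Both Cyp2f4 calls were lost with median scaling (adjusted p 0.078 in females and 0.058 in males) and with only the groups compared (0.34 and 0.12), the call in females without any 1 of 4 arrays (to at most 0.13) and that in males without vehicle rat 1005 (0.088).

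In the PFOA study 9 of 21 listed CAR and PXR targets rose and 1 fell, with a median of 0.41, and none passed with PFOS at 10 mg/kg/day, with a median of 0.21. Over all probe sets 3.23% rose and 2.83% fell with PFOA, and 0.283% rose and 0.177% fell with PFOS. Por rose by 3.74 ± 0.51 with PFOA (limma adjusted p 0.012) and differed by 3.41 ± 0.51 with PFOS (0.056). Gadd45b, a CAR partner in liver growth, rose by 5.79 ± 0.57 with PFOA. Cyp2b3 differed by -0.89 ± 0.13 with PFOA (0.016) and lost the call with 4 of 6 arrays left out in turn, to an adjusted p of at most 0.06. Cyp4a3, a PPARα target, rose by 1.85 ± 0.15 with PFOA.

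With Wy-14643, 3, 3 and 2 of the 21 rose and 3, 4 and 3 fell at 1, 3 and 7 days, with medians of -0.27, 0.01 and 0.19. Over all probe sets 5.94%, 5.56% and 6.57% rose and 5.52%, 5.22% and 6.49% fell. Ugt2b1, whose pattern was the most like K01721 in the ranking above, fell by 2.13, 2.35 and 2.5. At 7 days its limma adjusted p was 0.16 when only the groups compared were fitted. The Cyp2b1/2 probe set differed by 0.44, 0.99 and 1.45. Aldh1a1 rose by 3.39, 3.63 and 4.22. With D3T 7 of 19 rose and 3 fell, where 5.22% of all probe sets rose and 7.33% fell. Gsta3 rose by 5.21 ± 0.21. Nqo1, the standard NRF2 target, rose by 2.72 ± 0.18.

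The receptor genes themselves were measured on the 2 newer arrays. Nr1i3 (CAR) differed by 0.02 with PFOA, -0.45 with PFOS and 0.32, -0.31 and 0.52 with Wy-14643 at the 3 times. Nr1i2 (PXR) differed by 0.27, 0.07, -0.5, 0 and -0.22 in the same comparisons. None of these passed, with SE of 0.58 and 0.36 for Nr1i3 in the PFOA and PFOS and the Wy-14643 studies and of 0.21 and 0.24 for Nr1i2.

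Markers of other cells moved in some of the groups where the Cyp2b1/2 probe set did. With PFOA 2 of 8 hepatocyte, 1 of 7 macrophage, 1 of 4 endothelial and 2 of 5 stellate cell markers fell. Of 4 bile duct markers 1 rose. Over all probe sets 2.83% passed as lower and 3.23% as higher. With PFOS 1 of 7 macrophage markers fell, where 0.177% of all did. The summed macrophage markers ran from 11.94 to 12.48 (log2) in PFOA rats and from 12.41 to 12.93 in PFOS rats, against 12.83 to 13.34 in vehicle rats. With Wy-14643 at 3 days 4 of 8 hepatocyte, 1 of 5 lymphocyte and 1 of 4 blood markers fell, where 5.22% of all did. At 7 days 3 of 8 hepatocyte, 2 of 6 macrophage, 1 of 5 lymphocyte and 3 of 4 blood markers fell. Of 4 bile duct markers 1 rose. Over all probe sets 6.49% fell and 6.57% rose. The hepatocyte, macrophage and blood sums at 7 days were 16.51 to 16.54, 10.99 to 11.3 and 12.45 to 12.98 in Wy-14643 rats, against 16.73 to 16.74, 11.83 to 12.37 and 13.44 to 13.87 in vehicle rats, and S100a8 and S100a9 were at the floor in the treated rats. With D3T 3 of 8 hepatocyte, 2 of 5 macrophage, 1 of 4 stellate cell and 1 of 4 blood markers fell. Of 4 lymphocyte markers 1 rose and 1 fell. Over all probe sets 7.33% fell and 5.22% rose. In the PB and PCN study 0 to 2 hepatocyte markers of 8 fell with PB and 0 to 3 with PCN, where 0.103% to 3.98% of all fell in the 12 comparisons. With PCN 1 of the 8 rose in males at 5 d and in females at 24 h and 5 d. Their summed level lay between 15.7 and 15.98 in all 18 groups. Of 3 bile duct markers 1 rose at 5 d in PB males, PCN males and PCN females. Upward calls made up 2.56%, 2.93% and 4.45% of all in these 3 comparisons, and 2.29% in PCN females at 24 h. The part of these markers in the Cyp2b differences was not tested.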

How the data were processed

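The deposited files hold 1 intensity per probe set and array on a linear scale, with negative values, as the authors deposited them. How the authors summarised and scaled the probes is not given in the sources used here. Groups came from the sample labels. Studies whose array medians (log2) differed by over 0.5 were quantile normalised within the study (all but the 3-week one). Values under 0 became 0, 16 was added and the log2 taken, which gives a floor of 4.00. Control probe sets were left out, which left 8740, 15866 or 31042 probe sets per array type. Array 1003 was left out.

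For each study group means were fitted in limma 3.58.1 (R 4.3.3) with eBayes moderation, and p-values, all two-sided, were adjusted by Benjamini-Hochberg over all probe sets tested. There were 44 comparisons. PB and PCN share vehicle rats, as do PFOA and PFOS. The labels do not always say whether rats were housed or dosed separately, so p-values measure the spread between these arrays. For genes outside the Cyp2b genes the brightest probe set stood for the gene. Beside the members, the rule for named genes took up to 4 passing members of each list and comparison with the largest change. It also took the 8 probe sets most like K01721 over the group means, among those with a single gene symbol outside Cyp2b. Cyp3a23-3a1, Por and Cyp2b3 are also given in comparisons where the rule did not take them, and Nr1i3 and Nr1i2 stand outside it. These were chosen after their values were seen. Members, lists and comparisons were chosen with earlier results of these data known.

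As alternatives, the pseudocount was 1 or 64, arrays were median scaled, the dimmest 33.3% of probe sets were dropped, moderation used a trend and robust fit, only the groups compared were fitted, array 1003 was kept, a replicate block was used for D3T, and every array was dropped once. The values as deposited and the within-array difference were added after the data had been seen. Promoter sequences came from RefSeq (GRCr8), and motifs were searched on both strands. Python 3.11.15, pandas 2.3.3, numpy 2.4.6 and matplotlib 3.10.9 were used for tables and figures.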

Additional observations from a re-analysis of the deposited data

Results flagged for a closer look

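Of 140 sets of 4 or 5 rats of a group on 1 probe set, 5 had a rat whose gap to the next exceeded Dixon's 95% value, and chance flags about 1 in 20. PB male 4003 had the highest K01721 value at 6 h, 6635.7, with 6075 next to it. PCN female 5507 had the highest L00320 value at 24 h, 817.7, with 424.2 next. PCN female 5512 had the lowest J00728 value at 5 d, 1938.2, with 2499 next. Vehicle male 1013 of the 5-day group had the lowest L00320 value, 141, with 311.1 next, and the lowest M11251 value, 84.5, with 223 next. The 2 flags of rat 1013 come from probe sets that share the genes Cyp2b1 and Cyp2b2.

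Of 100 tests of an effect at one time or sex against another, 5 passed, all in females, and none of these 5 passed with array 1003 kept (adjusted p 0.052 to 0.71) or on the values as deposited (0.2 to 0.38). The PB effect was larger at 24 h than at 6 h for J00728 by 1.1, for L00320 by 1.52 and for M11251 by 1.47 (log2, limma adjusted p 0.0081, 0.0037 and 0.013). The PCN effect was larger at 5 d than at 24 h for D17349 by 1.27 and for J00728 by 1.17 (limma adjusted p 0.0091 and 0.014).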

How the results depend on the processing

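The 6 PB rises of K01721, and the PFOA and PFOS (10 mg/kg/day) rises of the Cyp2b1/2 probe set, kept their direction and passed in every alternative run. With only the groups compared, PCN in males gave K01721 differences of 2.82 at 6 h (adjusted p 0.098) and 1.7 at 24 h (0.11) that did not pass. In that fit PB minus PCN was 1.25 in females at 6 h (0.056), 0.81 in males at 5 d (0.0063) and 0.59 in females at 5 d (0.021). It put Wy-14643 at 3 days at 0.99 (0.067). With the dimmest 33.3% of probe sets left out, K01721 passed for PFOS for 3 weeks at 3.06 (0.022) and for vehicle females minus males at 24 h at -0.87 (0.049). On the values as deposited PB minus PCN in females at 6 h was 1.16 (0.051).

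D3T turned direction on the values as deposited: J00728 differed by -1.52, M13234 by -1.44, K01721 by -1.42, K00996 by -1.33 and M11251 by -1.73. Median scaling gave J00728 0.34 (0.068) and M11251 -0.06. The values as deposited also turned Cyp2a1 (-0.88), Cyp2f4 (-1.36) and Ncoa1 (-0.08) with D3T, and Cyp2b3 (0.05) and Cyp2f4 (0.1) with Wy-14643 at 3 days. Keeping array 1003 turned Cyp2f4 with PCN in males at 6 h (0.14). With a replicate block for D3T, by the rat number in the labels, J00728 passed at 0.45 (0.019), M13234 at 0.39 did not (0.15), and 358 of all probe sets passed, against 1097 without the block. The numbers are no pairing in the labels, and correlations of same-numbered deviations ran from -0.2 to 0.27 over 4 pairs.

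With 1 array left out, Wy-14643 at 1 day ran from 0.31 to 0.68, M11251 with D3T from -0.11 to 0.15, and the K01721 PB effect at 24 h less that at 6 h from 1.04 to 1.46 in females (adjusted p 0.038 without vehicle rat 1502) and from -0.55 to 0.22 in males. Counts over all probe sets moved by over 1.5 times in 43 of 43 comparisons on the values as deposited, in 33 of 42 with only the groups compared, in 13 of 35 with array 1003 kept, in 8 of 43 with median scaling, and in 95 of 549 with 1 array left out. For D3T 4470 of 8740 probe sets passed on the values as deposited, against 1097 after normalisation. For PCN in males at 6 h 934 passed with array 1003, against 164 without it. The cause of these differences was not tested. Signals near the floor limit the folds of vehicle groups.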
